A study of Mus musculus with 6 samples.

Results

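Transcripts of 10 matricellular genes were followed in sorted cells of the mouse dental follicle, the soft tissue around an unerupted tooth that forms cementum, periodontal ligament and alveolar bone. The genes are Postn and Tgfbi, which encode fasciclin-domain proteins, the tenascins Tnc, Tnn and Tnxb, the thrombospondins Thbs1 and Thbs2, and Sparc, Sparcl1 and Smoc2 of the SPARC family. They were chosen by symbol, with earlier results of these data known, and all 10 were found among the 17213 genes of the count table. The comparison was between 3 libraries labelled KO, with the genotype Pth1r(-/-), and 3 libraries labelled Het, with the genotype Pth1r(+/-). Pth1r encodes the receptor of parathyroid hormone and of PTHrP, and the comparison asks what differs in PTHrP-expressing follicle cells when the receptor is lost. All 6 libraries came from tdTomato-positive cells, labelled as PTHrP-positive, of mandibular molars at postnatal day 8. All received tamoxifen, which starts the conditional deletion, on day 3 according to the series text and on day 8 according to the sample descriptions. The sources used here do not give the strain, the recombinase line or how many animals each library pools.

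Matricellular proteins are secreted into the matrix but mostly regulate it rather than bear its load. They bind collagen, fibronectin, integrins and growth factors, and so tune fibril assembly, adhesion and TGF-beta signalling. In the tooth, periostin is the best known of them: it is abundant in the periodontal ligament, and mice without it develop a failing ligament.

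The libraries labelled KO held 51804736 to 66147200 counts and those labelled Het 34019925 to 63787622. Het replicate 2 was unlike the rest: it alone lay at the far end of the first principal component (38.6% of the variance), and thinned to equal depth it showed 14658 detected genes where the others showed 15175 to 15914. The female-expressed RNA Xist was near 0 in KO replicate 1 (0.230 CPM) and Het replicate 0 (0.145 CPM) and between 23.7 and 78.4 CPM elsewhere, so the sex makeup differed within both groups. Pth1r itself went against the labels, with 961, 608 and 472 CPM in KO replicates 0, 1 and 2, against 371, 286 and 346 CPM in Het replicates 0, 1 and 2. It was higher in KO without overlap (log2 fold change 1.02, adjusted p = 0.740 in edgeR's quasi-likelihood test and 0.0564 in DESeq2). Whole-gene counts do not show whether the deleted exons were transcribed, and every direction below is that of the libraries labelled KO relative to those labelled Het. CPM are counts scaled to a common library size by TMM. In bulk RNA, fewer cells of a type and less RNA per cell cannot be told apart.

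Of the 9 markers listed for follicle and periodontal ligament, all were detected, with summed levels of 3531 to 4081 CPM in libraries labelled KO and 2973 to 4572 CPM in those labelled Het. Wif1, a secreted Wnt inhibitor, made up most of these sums, and without it they were 847 to 961 CPM in KO and 905 to 1021 CPM in Het. Of the 9 markers 3 had higher and 6 lower fitted values. Aspn, a small leucine-rich proteoglycan gene of the ligament, was at 66.8, 44.8 and 47.1 CPM in KO replicates 0, 1 and 2, against 92.7, 112 and 161 CPM in Het replicates 0, 1 and 2 (adjusted p = 0.634 in edgeR and 0.00880 in DESeq2), lower in KO without overlap, as was Twist1. The tendon factor Scx among them stayed between 0.702 and 2.23 CPM. Enamel epithelium markers were also abundant, at 5215 to 10860.1 CPM in KO and 5285 to 8522 CPM in Het. No marker of any cell type listed was at 0 in all 6 libraries.

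The upstream sequences of 3 members are shown because Tgfbi and Tnn are the tested members with the largest fitted differences and Postn encodes periostin, abundant in the ligament. Each is the 250 bases before the start site, from RefSeq on GRCm38.p6, 5′ to 3′ on the gene's strand, and capitals mark a match to a motif searched. The windows are chr13:56609336-56609585 (plus strand) for Tgfbi, chr1:160153576-160153825 (minus strand) for Tnn and chr3:54360857-54361106 (plus strand) for Postn. The gene positions given below are from GENCODE M21 and differ from RefSeq. By GENCODE, Tgfbi starts at 56609523 and Tnn at 160153580, so the last bases of these 2 windows lie within the genes.
Tgfbi: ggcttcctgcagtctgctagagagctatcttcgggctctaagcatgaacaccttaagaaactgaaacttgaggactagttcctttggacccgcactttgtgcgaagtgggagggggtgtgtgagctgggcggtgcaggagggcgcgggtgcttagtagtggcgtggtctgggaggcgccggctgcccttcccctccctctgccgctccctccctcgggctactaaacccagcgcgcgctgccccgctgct
Tnn: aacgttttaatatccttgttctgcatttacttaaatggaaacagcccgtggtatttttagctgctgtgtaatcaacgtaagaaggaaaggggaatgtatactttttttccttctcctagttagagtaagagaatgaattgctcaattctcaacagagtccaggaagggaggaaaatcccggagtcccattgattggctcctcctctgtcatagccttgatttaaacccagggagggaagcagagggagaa
Postn: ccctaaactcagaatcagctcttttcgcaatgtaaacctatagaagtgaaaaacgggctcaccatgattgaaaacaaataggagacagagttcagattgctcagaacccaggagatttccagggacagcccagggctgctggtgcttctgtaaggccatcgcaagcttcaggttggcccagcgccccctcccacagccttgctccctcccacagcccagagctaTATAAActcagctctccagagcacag
The motifs searched on both strands were TGACG, the half-site bound by cAMP-responsive CREB proteins, TGTGGT, bound by RUNX factors, CANNTG, the E-box bound by TWIST and other basic helix-loop-helix factors, CAGACA, which holds the SMAD-binding letters, and TATAAA of the TATA box. The Postn window held 1 match, TATAAA starting 26 bases before the start site, and the Tgfbi and Tnn windows held none of the 5 motifs. Promoters of 7 members were in the table. Of these 7, 0 held TGACG, against 17.8% of all 32851 promoter windows, 0 held TGTGGT, against 14.0%, 4 held CANNTG, against 66.2%, 2 held CAGACA, against 17.1%, and 3 held TATAAA, against 12.4%. These counts describe only the letters of a short window.

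Ranked per transcript length, the 10 genes covered a very wide range of levels. The deposited FPKM of Sparc, the collagen-binding protein also called osteonectin, averaged 3278 ± 998 in the libraries labelled KO and 2557 ± 1371 in those labelled Het (SD, n = 3 each). Sparc alone took 0.646% to 0.958% of all counts in KO libraries and 0.283% to 0.877% in Het libraries. Over all 6 libraries the order of mean FPKM was Sparc (2917), Postn (179.7), Smoc2 (143), Tgfbi (89.6), Sparcl1 (80.6), Thbs2 (58.2), Tnc (47.6), Thbs1 (11.7), Tnn (6.61) and Tnxb (0.0840). Only the steps from Sparc to Postn, from Tnc to Thbs1 and from Tnn to Tnxb separated the neighbours without any overlap of libraries. From Postn down to Tnc each neighbour's range of FPKM overlapped the next. Thbs1 and Tnn overlapped over the libraries as a whole (lowest Thbs1 8.54, highest Tnn 11.1 FPKM), although Thbs1 was the higher in each of the 6 libraries.

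**Figure D1:**
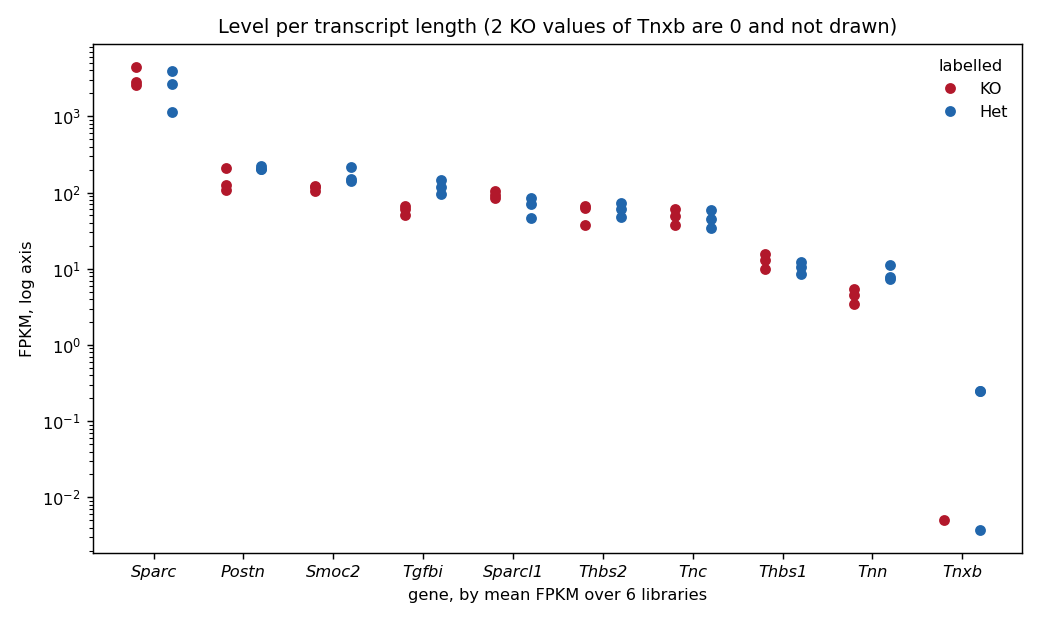
FPKM of the 10 genes on a log axis, ordered by the mean over 6 libraries. Each point is a library, labelled KO (left, red) or Het (right, blue). Sparc lies above all other genes, and Tnxb lies below 0.249 FPKM in every library, with 2 KO values at 0 that are not drawn.

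With edgeR's quasi-likelihood test over 14632 genes, 0 of the 9 members tested passed an adjusted p of 0.05, where 0% of all genes did. Tnxb was left out of this test by the filter on low counts. Of the 9, 4 had fitted values above 0 (higher in KO) and 5 below 0. Their median log2 fold change was -0.15, against -0.0095 over all genes tested, and the median size regardless of sign was 0.53 against 0.26. An unadjusted p under 0.05 was found for 4 members, Tgfbi, Tnn, Sparcl1 and Smoc2, and for 4.29% of all genes. The groups did not overlap for these same 4 members, 3 lower and 1 higher in KO, beside 10.7% of all genes without overlap, 4.83% lower and 5.84% higher. DESeq2 called 1 member, Tgfbi, where it called 0.509% of the 17084 genes it adjusted. Because the members were chosen with earlier results of these data known, these comparisons with all genes are description and carry no test.

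**Figure D2:**
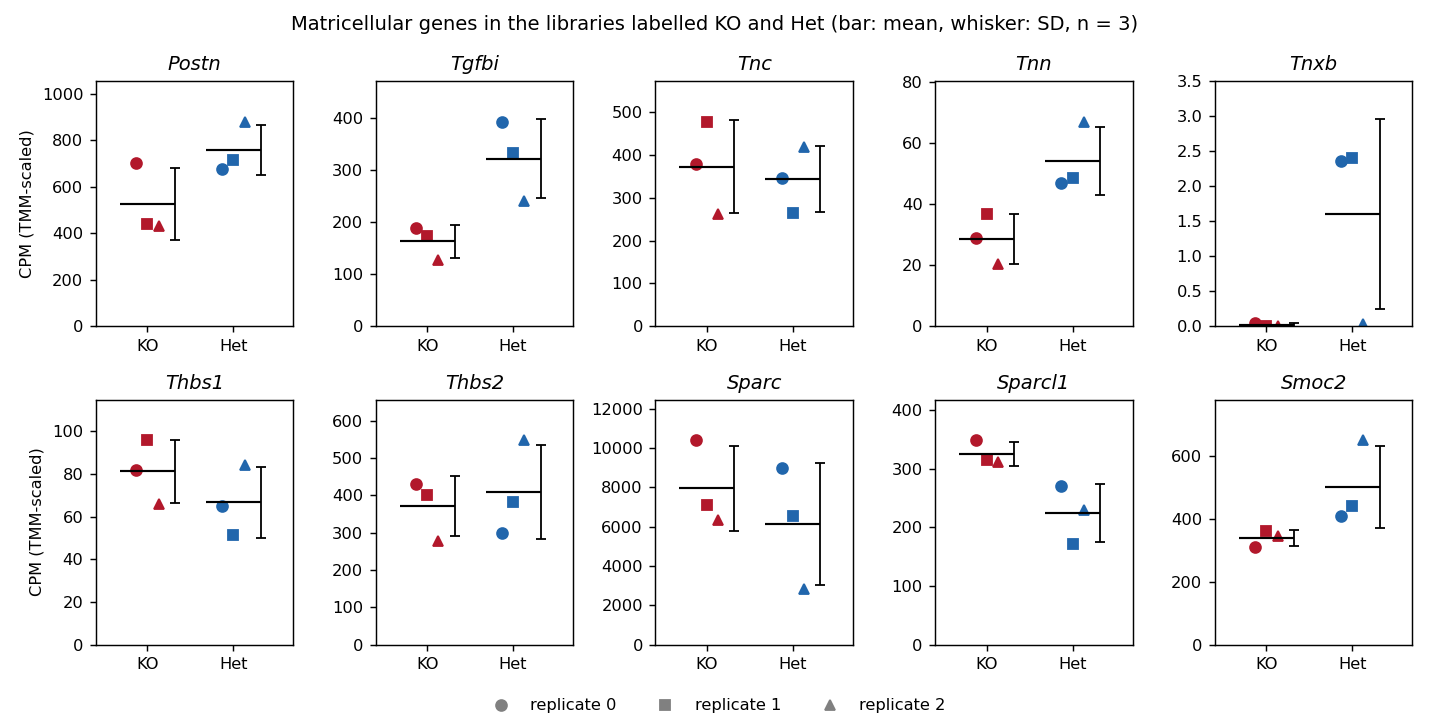
TMM-scaled CPM of each gene in the libraries labelled KO (left, red) and Het (right, blue), with the replicate number as the symbol, the mean as a bar and the SD as a whisker (n = 3). Tgfbi, Tnn and Smoc2 lie lower and Sparcl1 higher in all KO libraries than in any Het library, and each vertical axis starts at 0.

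In FPKM, Postn averaged 148 in KO and 211 in Het, and the other fasciclin-domain gene, Tgfbi, 59.9 in KO and 119 in Het, below Sparcl1 in KO (94.4) and above it in Het (66.9). Periostin, encoded by Postn (chromosome 3, 54361109 to 54391037 on the plus strand, mm10), binds collagen and integrins and helps collagen crosslinking. Postn was at 703, 441 and 431 CPM in KO replicates 0, 1 and 2, against 677, 713 and 879 CPM in Het replicates 0, 1 and 2. KO replicates 1 and 2 lay below all Het libraries, while KO replicate 0 lay within their range. The means were 525 ± 154 CPM in KO and 756 ± 108 CPM in Het (SD, n = 3 each), a log2 fold change of -0.53 (SE 0.24) with an adjusted p of 0.976 in edgeR.

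Tgfbi (chromosome 13, 56609523 to 56639562 on the plus strand) encodes a TGF-beta-induced matrix protein that links collagens to integrins. Tgfbi was at 188, 173 and 128 CPM in KO replicates 0, 1 and 2, against 393, 334 and 241 CPM in Het replicates 0, 1 and 2. All KO libraries lay below all Het libraries, with the gap between KO replicate 0 and Het replicate 2. The log2 fold change was -0.98 (SE 0.24), with an adjusted p of 0.654 in edgeR and 0.0260 in DESeq2. That DESeq2 call held without Het replicate 2 (adjusted p = 2.74e-05) and was lost without each of the other libraries in turn, with adjusted p of 0.133 and 0.112 without Het replicates 0 and 1 and 0.0817, 0.183 and 0.257 without KO replicates 0, 1 and 2.

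The genes whose profile over the 6 libraries came closest to Postn and Tgfbi were found among 8467 genes whose log2 CPM averaged at least 4, by the root mean square difference of log2 CPM centred on each gene's mean. For Postn they were Itgbl1 at 0.0892, Olfm2 at 0.129 and Twist1, which encodes a mesenchymal basic helix-loop-helix transcription factor, at 0.134. Itgbl1, which encodes an integrin beta-like protein, was at 119, 91.2 and 77.4 CPM in KO replicates 0, 1 and 2, against 123, 136 and 166 CPM in Het replicates 0, 1 and 2. For Tgfbi they were Stbd1, which encodes a glycogen-binding protein, at 0.200, Mfap5, which encodes a microfibril protein, at 0.245 and Igsf10 at 0.261. Stbd1 was at 32.8, 45.0 and 33.8 CPM in KO replicates 0, 1 and 2, against 93.6, 75.6 and 59.3 CPM in Het replicates 0, 1 and 2. All of these genes were selected for their likeness, which carries no test.

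The tenascins are large, multi-armed matrix glycoproteins that modulate adhesion, and the 3 members did not share a pattern. Tnc (chromosome 4, 63959785 to 64047015 on the minus strand) encodes tenascin-C, made where connective tissue is laid down or repaired. Tnc was at 379.9, 478 and 261 CPM in KO replicates 0, 1 and 2, against 345, 265 and 419.7 CPM in Het replicates 0, 1 and 2. The ranges of the groups almost coincided. The log2 fold change was 0.12 (SE 0.27, unadjusted 95% interval -0.49 to 0.72), and it was -0.037 without Het replicate 1 and -0.098 without KO replicate 1.

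Tnn (chromosome 1, 160085029 to 160153580 on the minus strand) encodes the tenascin known in mouse as tenascin-W, found in periosteum and forming bone. Tnn was at 28.9, 36.8 and 20.3 CPM in KO replicates 0, 1 and 2, against 47.0, 48.5 and 66.9 CPM in Het replicates 0, 1 and 2. All KO libraries lay below all Het libraries. The means were 28.7 ± 8.22 CPM in KO and 54.2 ± 11.1 CPM in Het (SD, n = 3 each), a log2 fold change of -0.92 (SE 0.27) with an adjusted p of 0.882 in edgeR and 0.225 in DESeq2.

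Tnxb (chromosome 17, 34670535 to 34719815 on the plus strand) encodes tenascin-X, a tenascin of loose connective tissue whose loss in humans causes a form of Ehlers-Danlos syndrome. It had 3, 0 and 0 counts in KO replicates 0, 1 and 2, against 147, 86 and 1 counts in Het replicates 0, 1 and 2. Het replicates 0 and 1 thus held nearly all of its counts, and Het replicate 2, the library that stood apart, lay between the KO libraries. The level was 0.0492 CPM in KO replicate 0, and 0 counts allow up to 0.0493 and 0.0571 CPM in KO replicates 1 and 2 (a floor of 3 counts per library), against 2.36, 2.39 and 0.0281 CPM in Het replicates 0, 1 and 2. The pooled ratio of KO to Het was 0.00983 (exact 95% interval 0.00201 to 0.0291), which covers counting error only and not the spread between libraries. The adjusted p was 0.0770 in DESeq2 and 0.880 in edgeR without a filter. In DESeq2 it was 0.0335 with the replicate number as a block, 0.0592, 0.297 and 0.264 without KO replicates 0, 1 and 2, and 0.286, 0.348 and 0.00108 without Het replicates 0, 1 and 2. The gene overlaps the pseudogene Cyp21a2-ps on the opposite strand.

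The thrombospondins are trimeric or pentameric glycoproteins, and the 2 members here form trimers that restrain blood vessel growth. Thbs1 (chromosome 2, 118111876 to 118127133 on the plus strand), which also activates latent TGF-beta, was at 81.9, 95.8 and 66.1 CPM in KO replicates 0, 1 and 2, against 64.8, 51.3 and 84.3 CPM in Het replicates 0, 1 and 2. The groups overlapped, with Het replicate 2 above 2 of the KO libraries. The log2 fold change was 0.28 (SE 0.24, 95% interval -0.26 to 0.83), and it lay between 0.13 without Het replicate 1 and 0.49 without Het replicate 2.

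Thbs2 (chromosome 17, 14665500 to 14694235 on the minus strand), which in mice is needed for normal collagen fibrils, was at 431, 402 and 279 CPM in KO replicates 0, 1 and 2, against 299, 383 and 547 CPM in Het replicates 0, 1 and 2. The groups overlapped, with KO replicate 2 the lowest and Het replicate 2 the highest, and between them KO replicates 0 and 1 lay above Het replicates 0 and 1. The log2 fold change was -0.15 (SE 0.27, 95% interval -0.75 to 0.46), and it was 0.12 without Het replicate 2 and 0.023 without KO replicate 2.

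Sparc (chromosome 11, 55394500 to 55423183 on the minus strand) was at 10402, 7104 and 6367 CPM in KO replicates 0, 1 and 2, against 8996, 6569.6 and 2838 CPM in Het replicates 0, 1 and 2. Het replicate 2 was far below the other libraries, which overlapped between the groups. The means were 7957 ± 2149 CPM in KO and 6135 ± 3102 CPM in Het (SD, n = 3 each). The log2 fold change of 0.38 (SE 0.40, 95% interval -0.52 to 1.27) was 0.037 without Het replicate 2, 0.15 without KO replicate 0 and 0.75 without Het replicate 0.

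Sparcl1 (chromosome 5, 104079111 to 104113733 on the minus strand) encodes hevin, a SPARC relative that binds collagen and is also made by vascular cells. Sparcl1 was at 349, 315 and 312 CPM in KO replicates 0, 1 and 2, against 270.0, 172 and 230.5 CPM in Het replicates 0, 1 and 2. Every KO library lay above every Het library, and the KO libraries differed little among themselves. The means were 325 ± 20.3 CPM in KO and 224 ± 49.4 CPM in Het (SD, n = 3 each), a log2 fold change of 0.54 (SE 0.21) with an adjusted p of 0.976 in edgeR.

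Smoc2 (chromosome 17, 14279506 to 14404790 on the plus strand) encodes a calcium-binding SPARC relative that modulates growth factor signalling, and its loss in humans is known to disturb tooth development. Smoc2 was at 309, 361 and 347 CPM in KO replicates 0, 1 and 2, against 409.8, 442 and 649.7 CPM in Het replicates 0, 1 and 2. All KO libraries lay below all Het libraries, and Het replicate 2 was the highest by far. The log2 fold change was -0.56 (SE 0.22) with an adjusted p of 0.976 in edgeR, and it was -0.32 without Het replicate 2. Smoc2 and Thbs2 are neighbours on chromosome 17, 260.7 kb apart with 0 protein-coding genes between them in GENCODE M21. Both were at their highest in Het replicate 2 and below their means in KO replicate 2, while in KO replicates 0 and 1 Smoc2 was below its mean and Thbs2 above.

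**Figure D3:**
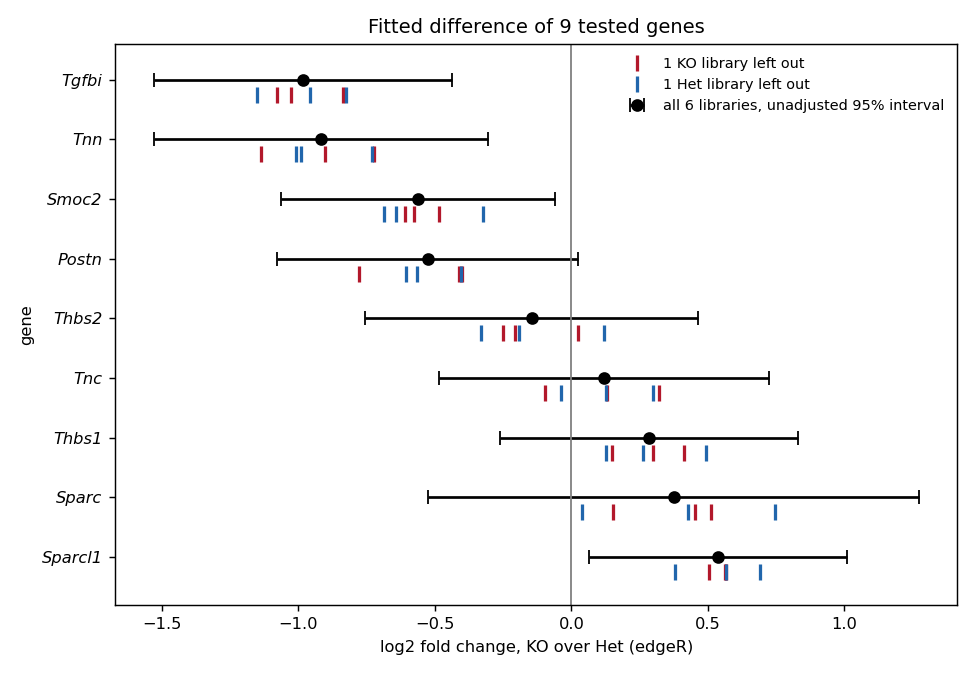
Fitted log2 fold change of KO over Het for the 9 members tested in edgeR, with the unadjusted 95% interval (black), and the value with 1 KO (red) or 1 Het (blue) library left out. The intervals of Tgfbi, Tnn and Smoc2 lie below 0 and that of Sparcl1 above 0, while Tnc and Thbs2 change sign when a library is left out.

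Across the libraries the members did not move as a block. Het replicate 2 held the highest value of 4 members, Postn, Tnn, Thbs2 and Smoc2, and the lowest of 1, Sparc. KO replicate 2 held the lowest value of 5 members, Postn, Tgfbi, Tnc, Tnn and Thbs2, and the highest of 0. KO replicate 0 was the highest library for Sparc and Sparcl1 and the lowest for Smoc2, and KO replicate 1 was the highest for Tnc and Thbs1.

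**Figure D4:**
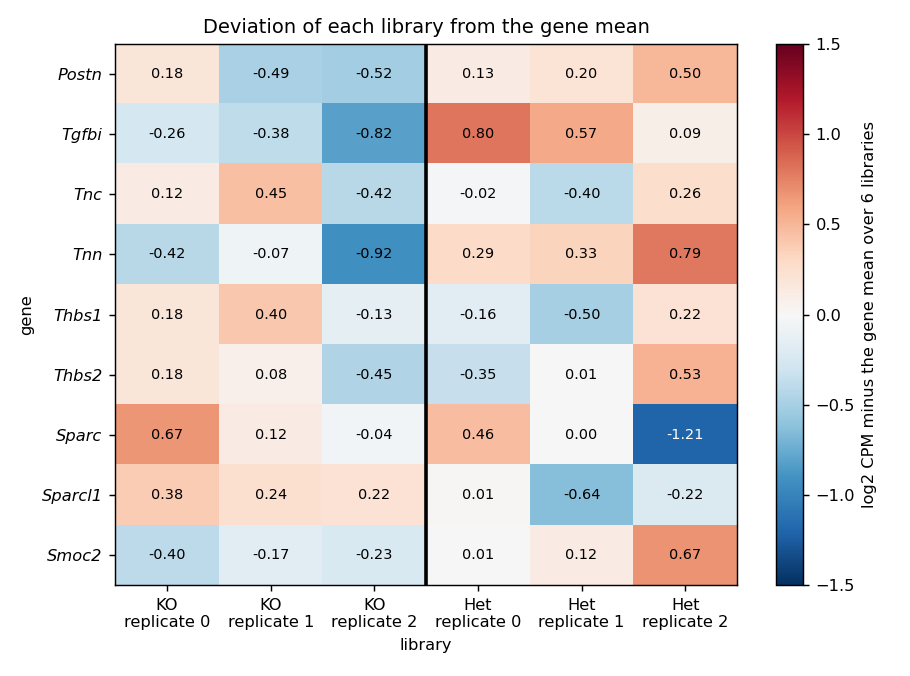
Log2 CPM of each of 9 members minus its mean over the 6 libraries, with KO libraries on the left and Het libraries on the right of the black line. Tgfbi, Tnn and Smoc2 are below their mean in the KO libraries and above it in the Het libraries, and Sparc in Het replicate 2 lies furthest from its mean, at -1.21.

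Markers of other cell types were also compared between the groups. Fitted values were higher in KO for all 9 osteoblast markers. Their summed level was 12915 to 21378 CPM in KO and 4996 to 12051 CPM in Het. Without Ibsp, the most abundant of them, it was 3164 to 4954 CPM in KO and 1593 to 3082 CPM in Het. DESeq2 called 2 of the 9, Dmp1 and Spp1 (adjusted p = 0.00146 and 0.0226), and edgeR called 0. Of 8 pericyte and smooth muscle markers 6 had lower fitted values. Their sums were 741 to 852 CPM in KO and 1046 to 1187 CPM in Het, lower in KO without overlap. Most of each sum was Acta2, at 487 to 569 CPM in KO and 708 to 814 CPM in Het. Among the 8, only Acta2 and Tagln were lower in KO without overlap, as were 4.83% of all genes tested. DESeq2 called 1 of the 8, Tagln (adjusted p = 0.00886), and edgeR called 0. Cspg4 had a higher fitted value, at 60.3 ± 24.9 CPM in KO and 33.5 ± 14.4 CPM in Het (SD, n = 3 each), as had Rgs5. The sum of 8 endothelial markers was 14.4 to 24.2 CPM in KO and 23.8 to 45.3 CPM in Het, so the groups overlapped. Of the 8, 6 had lower fitted values. Egfl7, the most abundant of them, overlapped between the groups, at 11.5 ± 3.02 CPM in KO and 16.3 ± 11.7 CPM in Het (SD, n = 3 each). Tek, Emcn and Cldn5 were at 0 in 1 or 2 libraries. The sum of 10 macrophage and leukocyte markers was 27.7 to 151 CPM in KO and 21.8 to 90.5 CPM in Het, with 9 of 10 fitted values higher. Schwann cell markers summed to 19.1 to 38.8 CPM in KO and 23.1 to 31.1 CPM in Het, with Sox10 at 0 in 5 libraries, and platelet and erythroid markers to 15.0 to 47.3 CPM in KO and 11.6 to 24.3 CPM in Het, with Gp9 at 0 in 5 libraries. The 4 odontoblast and pulp markers, 2 with higher and 2 with lower fitted values, summed to 186 to 617 CPM in KO and 88.2 to 157 CPM in Het. Without Dmp1, a matrix phosphoprotein gene that is also in the osteoblast list, the sums overlapped, at 47.8 to 80.3 CPM in KO and 59.2 to 84.6 CPM in Het. The part of these cells in the members' values was not tested.

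The wider families were measured through a list of 16 other matricellular genes, the remaining tenascins, thrombospondins and SPARC relatives and the CCN proteins, of which 13 were tested. In edgeR 7 had higher and 6 lower fitted values and 0 passed, with a median log2 fold change of 0.048. Wisp1, the CCN family gene known as Ccn4 and a Wnt target, was at 418 ± 172 CPM in KO and 223 ± 24.2 CPM in Het (SD, n = 3 each). Thbs3, a pentameric thrombospondin of skeletal tissue, was at 53.0 ± 8.30 CPM in KO and 73.1 ± 24.1 CPM in Het.

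Of 20 receptors and binding partners of these proteins, all tested, 10 had higher and 10 lower fitted values and 0 passed, with a median of 0.0084. Egfr, the growth factor receptor that tenascin-C repeats can engage, was at 32.6 ± 6.09 CPM in KO and 49.7 ± 9.28 CPM in Het (SD, n = 3 each). Fn1, which encodes fibronectin, was at 138 ± 25.9 CPM in KO and 182 ± 16.0 CPM in Het.

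Of 16 genes of TGF-beta ligands, receptors and common targets, 5 had higher and 11 lower fitted values and 0 passed, with a median of -0.12. Ltbp2, which by name only encodes a latent TGF-beta binding protein, was at 12.5 ± 2.94 CPM in KO and 21.9 ± 6.41 CPM in Het (SD, n = 3 each). The groups overlapped, with KO replicate 0 at 15.9 CPM and Het replicate 1 at 14.5 CPM. Named genes of these lists were those with the smallest unadjusted p.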

How the data were processed

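RNA was amplified with SMART-Seq v4 before Nextera XT library preparation, per the labels' protocols. Per the submitters' processing notes, reads were handled on mm10 with HTSeq, DESeq2, Cuffdiff, Cufflinks, Bowtie2 2.2.1 and TopHat2 2.0.13; the sources used here do not give the role of each, the annotation or the strand setting. Without strand, reads of Tnc, Tnxb, Thbs1, Sparcl1 and Smoc2 cannot be told apart from those of overlapping genes on the opposite strand. The authors deposited whole-number counts per gene symbol, estimated counts (rounded here) and FPKM. Amplified reads are not independent molecules, so floors and counting intervals cover counting error only.

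Counts were tested in R 4.3.3 with edgeR 4.0.16 (TMM, default low-count filter, two-sided quasi-likelihood F test, Benjamini-Hochberg over 14632 genes, threshold 0.05), and standard errors came from the F statistic. Alternatives were RLE factors, other filters, DESeq2 1.42.0, limma 3.58.1 (voom, and trend on log2(FPKM + 1) or log2(FPKM + 0.1), which understates changes of low genes), the estimated counts, a replicate block and each library left out. The edgeR, DESeq2 and limma-voom fits were tested on simulated counts with changes larger than those of the members tested. That checked direction and size, not power at the members' own differences. No label says that libraries came from separate animals, so p-values measure the spread between these libraries, part of which may be technical. The Xist values above show only that the sex makeup differed within both groups. The smallest chi-square between a pair, divided by its degrees of freedom, was 93.8. Positions came from GENCODE M21. Members and lists were chosen with earlier results of these data known. Named genes are the members, Pth1r, up to 2 per further list by unadjusted p and the 3 genes most like Postn and Tgfbi; others were chosen after their values were seen. A further gene that this rule names is not reported here.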

Additional observations from a re-analysis of the deposited data

How the results depend on the processing

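In edgeR 0 members and 0 of all genes passed, and 628 genes had an unadjusted p under 0.05. With RLE factors, both other filters and the estimated counts, these counts stayed at 0. DESeq2 called 87 genes and 1 member, Tgfbi. Limma-voom called 1 gene (Cd200), and limma-trend called 1 gene (Mir3061) with each FPKM setting, with 0 members. Leaving out each library, edgeR called 0 to 1 genes (Elane, without Het replicate 0) and 0 members, and DESeq2, chosen after seeing the data, called 48, 49 and 78 genes without KO replicates 0, 1 and 2 and 167, 137 and 175 without Het replicates 0, 1 and 2, with 2 members (Tgfbi and Tnxb) without Het replicate 2 and 0 otherwise. The replicate numbers did not clearly pair the libraries: same-numbered libraries deviated together with correlations of 0.17, 0.075 and 0.069, although all 6 correlated best with their own number. With the replicate number as a block, edgeR called 0 genes and 0 members, and DESeq2, chosen after seeing the data, called 185 genes and 2 members, Tgfbi and Tnxb. Directions of 7 of the 9 tested members held in every setting. Thbs2 had a log2 fold change of 0.067 in limma-voom and -0.33 to 0.12 with 1 library left out in edgeR (-0.35 to 0.12 in DESeq2, with 0.014 without KO replicate 2), and Tnc had -0.098 to 0.32 (-0.11 to 0.32 in DESeq2, with -0.036 without Het replicate 1). The cause was not tested.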

Other observations

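Tnxb was not the only gene counted almost entirely in Het replicates 0 and 1. By the same measure of likeness, applied to 15172 genes with at least 50 counts in all and chosen after the values of Tnxb were seen, the closest genes were Gm1123, Pla2g2f, which encodes a secreted phospholipase, and the chemokine receptor gene Ccr9, at 0.53, 0.53 and 0.59. Pla2g2f was at 0 in all KO libraries, against 2.43, 1.09 and 0 CPM in Het replicates 0, 1 and 2. Further down the same ranking, Kl, which encodes the FGF co-receptor Klotho, was at 0.0164, 0 and 0.0571 CPM in KO replicates 0, 1 and 2, against 1.48, 1.42 and 0.0843 CPM in Het replicates 0, 1 and 2. Tbx18, a T-box transcription factor gene of mesenchyme, was at 0.706, 0.329 and 0.209 CPM in KO replicates 0, 1 and 2, against 4.71, 4.07 and 0.534 CPM in Het replicates 0, 1 and 2. Kl and Tbx18 are examples and not the next in order. Lta, Kbtbd8, Klk11 and Tmprss7 also ranked before Tbx18, and Pdcd1lg2, H2-Aa and Gm5122 came after it. In each of these genes Het replicate 2 was nearer to the KO libraries than to the other Het libraries. These values were selected for their likeness and carry no test.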
